A study of Rattus norvegicus with 2 samples.

Results

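Forkhead genes were measured in embryonic stem cells of the rat (Rattus norvegicus), from 2 RNA-seq libraries. Forkhead, or FOX, factors are transcription factors that share the forkhead (winged helix) DNA-binding domain, and each gene symbol gives a subfamily letter and a number. The members were all genes of the deposited table with a symbol that starts with Fox, a letter from a to s and a digit: 41 rows for 40 genes of 23282 listed. The cells were the DA-EC8/Rrrc line of the Dark Agouti strain, at passage 30 with a normal karyotype, grown untreated in 2i medium, a medium with MEK and GSK3 inhibitors. Both libraries form 1 wild-type group, so no contrast between conditions exists and no test was made. Each library came from total RNA of a single line. The series calls the libraries biological replicates, but the labels do not say that they came from separate cultures, so the spread between them may be technical. Levels are RPKM, read numbers scaled to the length of the gene model and to 1000000 reads of the library, and thus levels per length. Each mean is given with its SD over 2 replicates.

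Forkhead factors sit at the end of several signalling pathways. FOXH1 carries Nodal and Activin signals to DNA together with Smad proteins. FOXO proteins are phosphorylated by AKT when growth factors are present and are then held outside the nucleus. FOXM1 activates genes of mitosis, and FOXA proteins open chromatin for the endoderm programme. In mouse embryonic stem cells and epiblast, FOXD3 is needed to keep the undifferentiated state. Most other members are known from single lineages, such as FOXJ1 in cells with motile cilia and FOXP3 in regulatory T cells.

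Steps shared by part of the values gave totals of 2991184 reads for replicate 1 and 3050685 reads for replicate 2. With a model length of 2 kb, 3 reads would give 0.501 RPKM in the first library and 0.492 RPKM in the second, a limit for counting error alone. All 12 pluripotency markers used to check the label reached a mean of 1 RPKM, against 46.4% of all genes. They ranged from Utf1 at 655 ± 14.1 RPKM to Klf4 at 7.06 ± 0.594 RPKM. Of 14 fibroblast and feeder cell markers 4 reached 1 RPKM, against 46.4% of all genes. The summed level of the 14 was 19.3 RPKM in replicate 1 and 25.6 in replicate 2. Col5a1 was highest at 13.1 ± 0.493 RPKM, while Prrx1, Twist2, Lum, S100a4 and Col1a2 were listed at 0. A listed 0 can be a failed estimate, since the ribosomal protein gene Rps6 was also listed at 0 in both libraries. In bulk RNA, fewer cells of a type and less RNA per cell cannot be told apart.

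A mean of at least 1 RPKM, taken here as detected, was reached by 21 of the 40 forkhead genes, against 46.4% of all genes listed. Of the 40, 12 reached 10 RPKM, against 29.4% of all genes, and none reached 100 RPKM. Both shares were near those of the whole table, and neither difference was tested. Another 10 members had a mean above 0 and under 1 RPKM. The 9 others, among them Foxa2, Foxb2, Foxc1, Foxd2, Foxd4, Foxe3, Foxi1 and Foxs1, were listed at 0 in both replicates, as were 38.2% of all genes. The median of the 21 detected members was 11.5 RPKM, against 16.7 RPKM over all detected genes. Together the 40 genes summed to 358 RPKM in replicate 1 and 370.5 in replicate 2. The 3 highest members, Foxd3, Foxo1 and Foxh1, held 41.7% of that sum in replicate 1 and 44.7% in replicate 2.

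**Figure D1:**
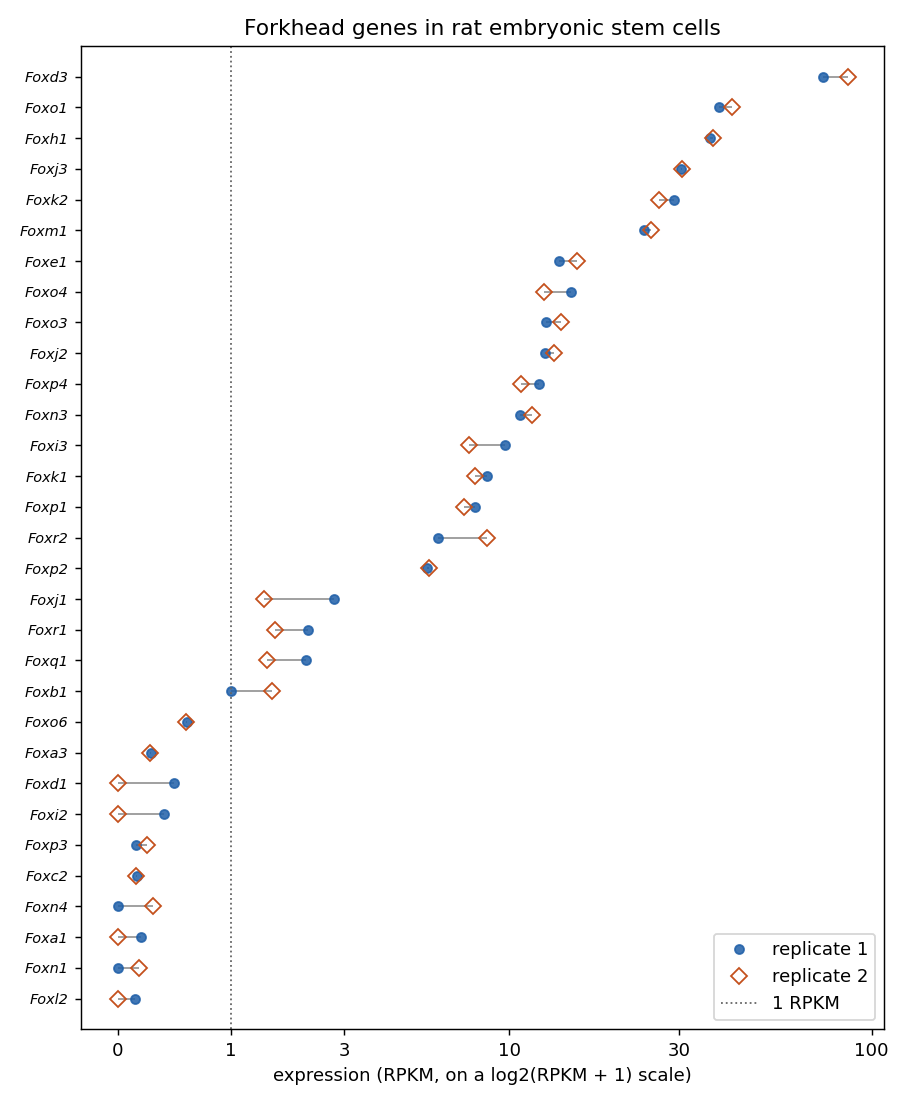
Level of the 31 forkhead genes above 0 in at least 1 library, in replicate 1 (filled circles) and replicate 2 (open diamonds), in RPKM on a log2(RPKM + 1) axis, ordered by mean; the dotted line marks 1 RPKM. Foxd3 lies apart from the others at the top, and 10 genes have a mean left of the line.

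Both members assigned to the early embryo were among the 3 highest. Foxd3, the epiblast and neural crest factor, was at 74.1 RPKM in replicate 1 and 86.2 in replicate 2, with a mean of 80.1 ± 8.61 RPKM, above 94.6% of all genes listed. Its row (Entrez gene 29203, chromosome 5, 122277524 to 122278462 on rn5, plus strand) spans only 939 bp, and whole reads came out with that length as the gene model, 208 in replicate 1 and 247 in replicate 2. The exact Poisson 95% intervals of these counts correspond to 64.3 to 84.8 RPKM and to 75.8 to 97.7 RPKM. The intervals overlap. The mean of Foxd3 was 1.99 times that of Foxo1, the member below it, and their replicate values did not overlap. Whether the row covers the whole transcript was not tested, and the level, its rank and this ratio would be lower with a longer gene model at the same number of reads.

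Foxh1, the Smad partner, was at 36.6 RPKM in replicate 1 and 37.3 in replicate 2. The row (Entrez gene 300054, chromosome 7, 117718390 to 117720470) overlaps the gene KIFC2 on the other strand by 396 bp. KIFC2 itself was at 7.51 ± 0.888 RPKM, and the counting is not stated to use strand, so reads from the shared stretch cannot be told apart. All 12 genes of a list of FOXH1 partners from Nodal and Activin signalling reached 1 RPKM, against 46.4% of all genes. At 10 RPKM or more were 9 of them, against 29.4% of all genes, with a median of 28.0 ± 0.614 RPKM over the list. The co-receptor gene Tdgf1 (344 ± 14.2 RPKM) led it, followed by the ligand genes Gdf3 (155 ± 5.76 RPKM) and Nodal (47.4 ± 0.199 RPKM), while the ligand gene Gdf1 was lowest at 1.18 ± 0.193 RPKM. Among the receptor-regulated Smads, Smad2 was at 26.5 ± 1.08 RPKM and Smad3 at 1.56 ± 0.280 RPKM. Known FOXH1 targets were uneven, with 5 of 8 detected, against 46.4% of all genes, and a median of 3.03 ± 0.858 RPKM. The Nodal inhibitor gene Lefty1 was at 119 ± 3.74 RPKM and the T-box gene Eomes at 21.9 ± 0.533 RPKM. Of the other primitive streak genes in the list, T was at 0.847 RPKM in replicate 1 and 0.332 in replicate 2, and Mixl1 and Gsc were listed at 0. Lefty2, a related Nodal inhibitor gene, was at 5.50 RPKM in replicate 1 and 3.98 in replicate 2.

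Of the 4 FOXO genes, 3 were detected. Foxo1 was highest at 38.7 RPKM in replicate 1 and 42.0 in replicate 2 (Entrez gene 84482, chromosome 2, 161140308 to 161215605). Foxo4, on the X chromosome, was at 15.0 and 12.6 RPKM in replicates 1 and 2, and Foxo3 was at 12.7 and 14.1 RPKM. Foxo4 was the higher of this pair in replicate 1 and the lower in replicate 2, so their order is not resolved, while Foxo1 exceeded both in each replicate. Foxo6, which in mouse is known mainly from the brain, was at 0.526 RPKM in replicate 1 and 0.516 in replicate 2. The ratio of these 2 values, 0.980, is what equal numbers of reads in libraries of unequal depth give, and as few as 1 read in each would account for them.

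All 22 genes of a list of PI3K, AKT and SGK kinases, cytoplasmic anchors and cofactors of FOXO proteins reached 1 RPKM, against 46.4% of all genes. Of the 22, 17 reached 10 RPKM, against 29.4% of all genes, and the list median was 44.3 ± 1.94 RPKM. The highest were Ywhae (659 ± 22.4 RPKM), Ywhaz (391 ± 14.1 RPKM) and Ywhaq (291 ± 5.50 RPKM), whose products bind phosphorylated FOXO proteins and hold them in the cytoplasm. The kinase gene Sgk1 was lowest at 1.87 ± 0.637 RPKM. Of the AKT kinase genes, Akt1 was at 48.0 ± 6.64 RPKM and Akt2 at 16.8 ± 0.886 RPKM, with no overlap between their replicate values. Whether the products of the listed genes control FOXO proteins in these cells was not tested.

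Of 23 FOXO target genes 15 were detected, against 46.4% of all genes, and 10 reached 10 RPKM, against 29.4%. Listed at 0 were 6, against 38.2% of all genes. The median over the list was 9.18 RPKM. Txnip, which restrains glucose uptake, stood highest at 416 ± 16.0 RPKM. The antioxidant enzyme genes Cat and Sod2 followed at 76.7 ± 3.51 RPKM and 56.2 ± 2.95 RPKM. Those listed at 0 included targets known from single tissues, the gluconeogenic genes Pck1 and G6pc of liver, Trim63 and Fbxo32 of wasting muscle, and Il7r of lymphocytes, together with the death ligand gene Tnfsf10. Whether any of these levels depend on FOXO proteins was not tested.

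Foxm1, the forkhead gene of the cell cycle, was at 24.0 RPKM in replicate 1 and 25.1 in replicate 2 (Entrez gene 58921, chromosome 4, 226891344 to 226902366). All 22 of its mitotic target genes were detected, against 46.4% of all genes, and 20 of them reached 10 RPKM, against 29.4%. Their median was 76.2 ± 2.59 RPKM, against a median of 16.7 RPKM over all detected genes. Cyclin gene Ccnb1 (259 ± 13.3 RPKM), topoisomerase gene Top2a (255 ± 7.85 RPKM) and Cdc20, an activator of the anaphase complex (177 ± 10.1 RPKM), were highest, and the phosphatase gene Cdc25b was lowest at 4.14 ± 0.392 RPKM. Of the targets, 16 had a mean above that of Foxm1 itself and 6, Cenpe, Cenpa, Cdc25c, Cks1b, Ccnb2 and Cdc25b, a mean under it. The partner complex was detected in all 6 genes listed, against 46.4% of all genes. Mybl2, which encodes B-MYB, was at 158 ± 4.84 RPKM, Lin37 at 18.5 ± 2.56 RPKM and Rbbp4 at 13.1 ± 2.55 RPKM, while Lin9 was lowest at 2.35 ± 0.0412 RPKM.

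**Figure D2:**
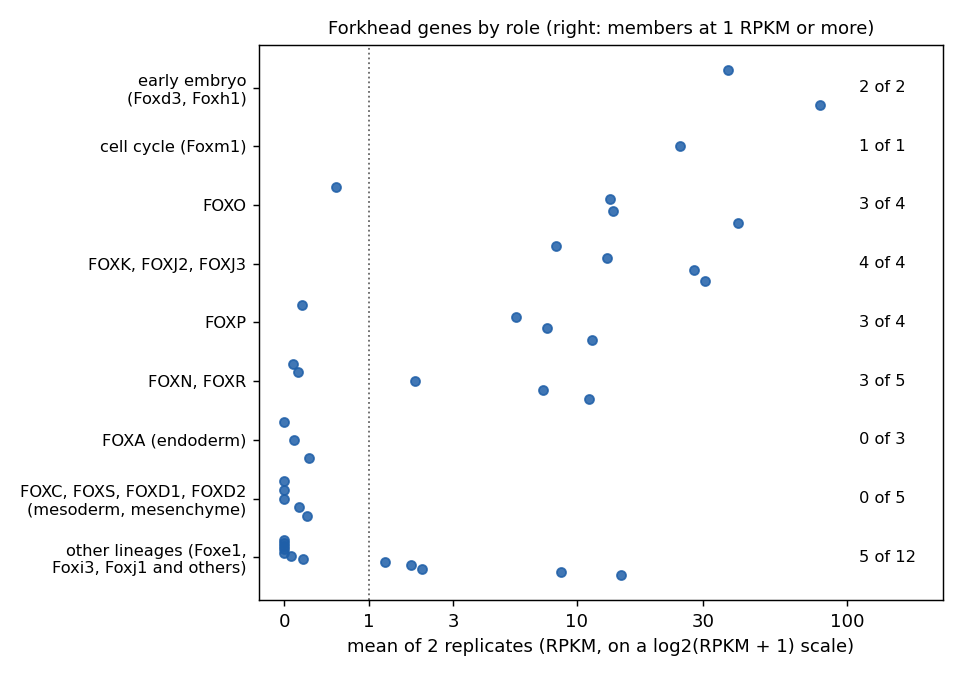
Mean level of the 40 forkhead genes by role, in RPKM on a log2(RPKM + 1) axis; each point is a gene and the dotted line marks 1 RPKM, with the number of members at 1 RPKM or more at the right. None of the 3 FOXA genes and none of the 5 genes of the mesoderm and mesenchyme group lie right of the line, while all 4 genes of the FOXK, FOXJ2 and FOXJ3 group do.

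The FOXK and FOXJ2 and FOXJ3 genes, known to be widely expressed, were all detected. Foxj3 was at 30.4 RPKM in replicate 1 and 30.6 in replicate 2, and Foxj2 was at 12.7 and 13.4 RPKM. A gene listed as Rps27a, at 13.4 ± 0.673 RPKM, lies inside the Foxj3 locus on the other strand and overlaps it by 545 bp. Foxk2 was at 29.1 RPKM in replicate 1 and 26.4 in replicate 2, above Foxk1 at 8.60 and 7.91 RPKM. The values of Foxk1 and Foxk2 did not overlap, and the Foxk1 locus shares 18369 bp with LOC100911504 on the same strand, itself at 2.90 ± 0.473 RPKM. FOXK proteins recruit the BAP1 deubiquitinase and the SIN3 co-repressor. All 9 partner genes measured reached 10 RPKM, against 29.4% of all genes, and their median was 37.0 ± 0.451 RPKM. The highest were Sin3b (125 ± 10.99 RPKM), Ogt (80.3 ± 6.34 RPKM) and Sin3a (80.3 ± 6.33 RPKM), with Dvl1 lowest at 14.2 ± 0.752 RPKM. Asxl1 was not analysed here.

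The FOXP genes encode repressors that bind DNA as dimers through a leucine zipper. Foxp4 was highest at 12.2 RPKM in replicate 1 and 10.8 in replicate 2. Foxp1 was at 7.93 and 7.33 RPKM, and Foxp2, known for its part in speech and vocal learning, at 5.66 and 5.71 RPKM. The order Foxp4, Foxp1, Foxp2 was the same in both replicates, with no overlap between neighbours. Foxp3 was at 0.117 and 0.195 RPKM, and Ccdc22, at 20.03 ± 0.620 RPKM, overlaps its locus by 1751 bp on the other strand. Of 10 FOXP partner genes 9 were detected, against 46.4% of all genes, and 8 reached 10 RPKM, against 29.4%. Their median was 67.6 ± 0.735 RPKM. Mta1 of the NuRD complex (122 ± 3.49 RPKM), Hdac2 (109 ± 1.82 RPKM) and Gatad2a (93.1 ± 2.00 RPKM) were highest. The NFAT genes, T cell partners listed with them, were the lowest, with Nfatc2 at 1.81 RPKM in replicate 1 and 1.51 in replicate 2. Nfatc1 was at 0.0820 RPKM in replicate 1 and 0 in replicate 2.

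Foxn3, a checkpoint factor, was at 10.8 RPKM in replicate 1 and 11.6 in replicate 2. Foxn1, the thymus and hair gene mutated in nude mice, and Foxn4, which acts in retina and spinal cord, were listed at 0 in replicate 1 and at 0.139 and 0.242 RPKM in replicate 2. A single read would account for either value. Foxn1 overlaps Unc119, at 34.4 ± 1.23 RPKM, by 3295 bp on the other strand.

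The X-linked Foxr2 was at 6.12 RPKM in replicate 1 and 8.60 in replicate 2, and its relative Foxr1 was at 2.21 and 1.62 RPKM. FOXR2 is known in human as an oncogene of embryonal brain tumours. The shortest gene model that made both Foxr2 values whole held 30 reads in replicate 1 and 43 reads in replicate 2. Foxr2 exceeded Foxr1 in each replicate.

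Lineage factors were mostly under 1 RPKM, with 2 clear exceptions. None of the 3 FOXA genes was detected: Foxa3 was at 0.223 and 0.219 RPKM in replicates 1 and 2, Foxa1 was at 0.154 RPKM in replicate 1 and 0 in replicate 2, and Foxa2 was listed at 0. Of 11 endoderm and liver genes downstream of FOXA, only Sox17 was detected, at 1.21 ± 0.0838 RPKM, against 46.4% of all genes detected. Cxcr4 (0.679 ± 0.147 RPKM) and Apoa1 (0.367 ± 0.0130 RPKM) came next. Ttr was among 7 listed at 0, against 38.2% of all genes.

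None of the 5 measured genes of the mesoderm and mesenchyme group reached 1 RPKM. Foxd1, a factor of kidney stroma, had 3 reads in replicate 1, or 0.411 RPKM, and none in replicate 2. Foxc2, a factor of mesenchyme and lymphatic vessels, had 1 read in each library, at 0.124 and 0.121 RPKM, and Foxc1, Foxd2 and Foxs1 were listed at 0. For Foxd1 the exact Poisson 95% interval was 0.0847 to 1.20 RPKM in replicate 1 and 0 to 0.495 RPKM in replicate 2. These intervals overlap. The group summed to 0.535 RPKM in replicate 1 and 0.121 in replicate 2. The summed fibroblast markers given above were higher in replicate 2, and their part in the forkhead levels was not tested.

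The exceptions were Foxe1 and Foxi3. Foxe1, which the table also describes as a thyroid transcription factor, was at 13.9 RPKM in replicate 1 and 15.6 in replicate 2 (Entrez gene 192274, chromosome 5, 66467889 to 66470697). With the whole locus of 2809 bp as gene model it held 117 reads in replicate 1 and 134 reads in replicate 2, with exact Poisson 95% intervals of 11.5 to 16.7 RPKM and 13.1 to 18.5 RPKM. Its level was above 75.2% of all genes listed, and no other gene overlaps the locus. Foxi3, an ectodermal factor of teeth, hair and pharyngeal arches, was at 9.68 RPKM in replicate 1 and 7.59 in replicate 2. Its relatives were low, with Foxi2 at 0.330 and 0 RPKM and Foxi1 listed at 0, as was Foxe3, the lens factor related to Foxe1. The 8 genes listed for FOXE, FOXI, FOXL and FOXN lineages were all at 0 in both replicates, against 38.2% of all genes. Among them were the thyroid genes Tg and Tshr.

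Of the other lineage factors, 3 lay just above 1 RPKM. Foxj1, the factor of motile cilia, was at 2.76 RPKM in replicate 1 and 1.44 in replicate 2, but 22861 bp of its locus are shared with LOC688272 on the same strand, itself at 5.45 ± 0.232 RPKM. Of 16 cilia genes downstream of FOXJ1 4 were detected, against 46.4% of all genes. They were Ccdc39 (7.71 ± 0.592 RPKM), Rfx3 (4.24 ± 0.686 RPKM), Dnai2 (3.09 ± 1.17 RPKM) and Rsph1 (1.802 ± 1.29 RPKM). Listed at 0 were 5, Dnai1 among them, against 38.2% of all genes. Foxq1 was at 2.16 and 1.49 RPKM, from 17 reads in replicate 1 and 12 reads in replicate 2. Foxb1, known from the hypothalamus, was at 0.999 and 1.57 RPKM. Foxl2, the factor of ovarian granulosa cells, was at 0.115 RPKM in replicate 1, from 1 read, and at 0 in replicate 2, while Foxb2 and Foxd4 were listed at 0.

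**Figure D3:**
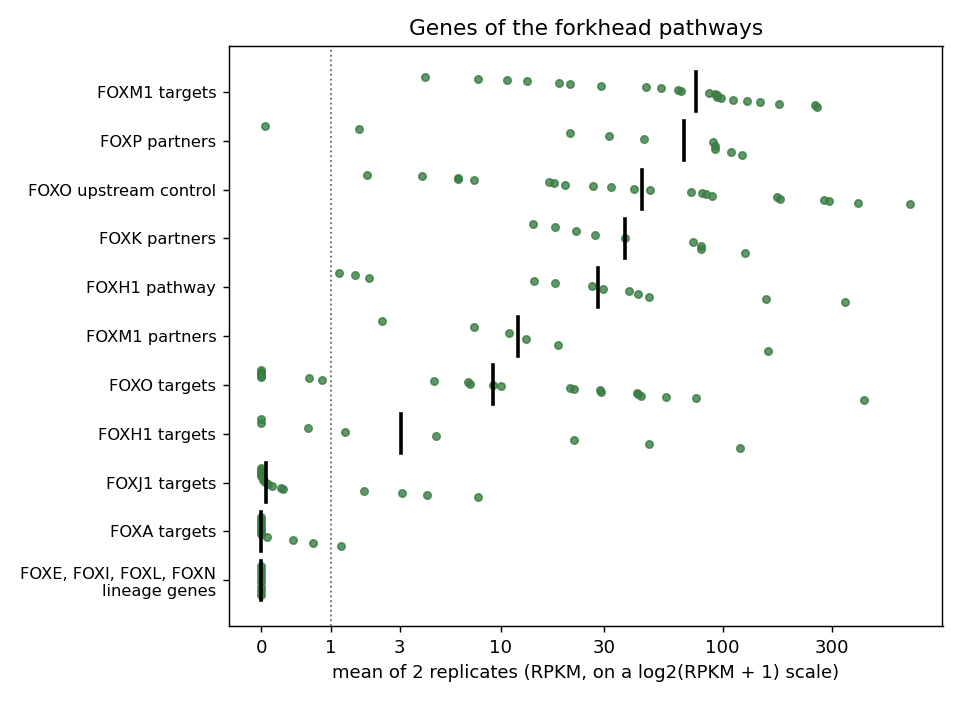
Mean level in RPKM, on a log2(RPKM + 1) axis, of genes that act with or downstream of forkhead factors; each point is a gene, the vertical bar is the list median and the dotted line marks 1 RPKM. FOXM1 targets have the highest median, 76.2 RPKM, and the medians of the FOXA targets and of the lineage genes lie at 0.

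The deposited table lists paralogs gene by gene, and the choice of members did not use them. Members linked by these entries, directly or through other members, were joined here into sets. The entries do not link all genes of a subfamily. Foxo1 and Foxo6 are not joined to Foxo3 and Foxo4, nor Foxa1 to Foxa2 and Foxa3. The sets are therefore those of the deposited entries and not whole subfamilies. The sets differed in how many members were detected, beside 46.4% of all genes detected and 38.2% at 0. A set of 11 genes that joins the FOXJ2, FOXJ3, FOXK, FOXN and FOXP genes had 8 detected and none at 0 in both replicates. A set of equal size that joins Foxa2, Foxa3, Foxd1, Foxd2, Foxd4, Foxe1, Foxe3, Foxi1, Foxi3, Foxl2 and Foxs1 had 2 detected, Foxe1 and Foxi3, and 6 at 0. All 3 genes of the set of Foxm1, Foxo3 and Foxo4 were detected, and so were both Foxr genes. The table lists no forkhead paralog for the other 13 members, which had 6 detected, Foxd3, Foxo1 and Foxh1 among them, and 3 at 0. No difference between these groups was tested. Locus length also differed. The 21 detected members had a median locus of 26076 bp with 6 under 5000 bp, while the 19 others had a median of 2915 bp with 12 under 5000 bp. Over all genes the medians were 20632.5 bp for those detected and 6038.5 bp for the others. Long loci were therefore more common among detected genes in the whole table as well.

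Of the 7 members with another forkhead or forkhead-like row within 1000 kb, 2 were detected, against 46.4% of all genes, and the difference was not tested. Foxd2 and Foxe3, 14.9 kb apart on chromosome 5, were both listed at 0. On chromosome 19, Foxc2 lies between rows described as FOXF1-like and FOXL1-like, at distances of 27.6 kb and 8.65 kb, and both of these were listed at 0. Foxc1 and Foxq1, 248 kb apart on chromosome 17, were listed at 0 and at 1.83 RPKM. Among these pairs only that of Foxj3 and Foxo6, 516 kb apart on chromosome 5, held a member above 10 RPKM, with Foxo6 under 1 RPKM.

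Promoters are shown because CpG dinucleotides, which gather at the starts of many widely expressed and developmental genes, were more numerous in the median detected member than in the median undetected one; no test was made. Of the 40 members 27 had an entry in the RefSeq promoter table of the GRCr8 build, and the window used was the 250 bases before the start. Each sequence runs 5′ to 3′ on the gene's strand, with every CG in capitals. Shown are the 2 highest members that had an entry (Foxd3, Foxo1), the detected member with the fewest CG (Foxr2), an undetected member with few (Foxa2) and the undetected member with the most (Foxc1). The windows are chr5:119450282-119450531 on the plus strand for Foxd3, chr2:138462724-138462973 on the plus strand for Foxo1, chrX:21651792-21652041 on the minus strand for Foxr2, chr3:155927509-155927758 on the minus strand for Foxa2 and chr17:32844101-32844350 on the minus strand for Foxc1. The measured Foxa2 row is on the plus strand of rn5, unlike its GRCr8 window, and this difference was not examined.
Foxd3: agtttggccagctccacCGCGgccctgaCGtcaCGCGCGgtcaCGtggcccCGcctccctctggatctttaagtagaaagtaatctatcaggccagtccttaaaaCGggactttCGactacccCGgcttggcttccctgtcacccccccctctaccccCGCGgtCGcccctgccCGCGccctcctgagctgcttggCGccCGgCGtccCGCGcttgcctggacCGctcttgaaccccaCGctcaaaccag
Foxo1: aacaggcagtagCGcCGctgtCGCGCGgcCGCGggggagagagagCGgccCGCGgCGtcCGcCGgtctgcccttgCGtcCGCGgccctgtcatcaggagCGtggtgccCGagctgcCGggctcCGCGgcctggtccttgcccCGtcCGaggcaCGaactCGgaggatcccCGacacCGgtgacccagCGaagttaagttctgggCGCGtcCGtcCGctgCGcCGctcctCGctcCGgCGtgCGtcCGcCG
Foxr2: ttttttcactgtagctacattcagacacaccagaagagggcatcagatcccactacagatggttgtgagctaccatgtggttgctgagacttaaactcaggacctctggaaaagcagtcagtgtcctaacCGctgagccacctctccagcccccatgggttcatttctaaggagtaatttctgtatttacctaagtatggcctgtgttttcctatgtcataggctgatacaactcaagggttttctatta
Foxa2: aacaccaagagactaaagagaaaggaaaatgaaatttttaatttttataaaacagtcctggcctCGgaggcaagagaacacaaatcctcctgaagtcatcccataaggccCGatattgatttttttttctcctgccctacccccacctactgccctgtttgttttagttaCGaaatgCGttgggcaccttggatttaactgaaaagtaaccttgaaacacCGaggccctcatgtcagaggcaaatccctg
Foxc1: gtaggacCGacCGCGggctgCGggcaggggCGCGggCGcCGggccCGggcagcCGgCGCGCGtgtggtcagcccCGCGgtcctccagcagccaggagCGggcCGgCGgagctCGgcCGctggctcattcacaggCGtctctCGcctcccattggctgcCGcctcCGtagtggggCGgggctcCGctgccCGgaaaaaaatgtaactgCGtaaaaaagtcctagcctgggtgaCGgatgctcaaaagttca

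These windows held 23 CG in Foxd3 and 40 in Foxo1, against 1 in Foxr2, 5 in Foxa2 and 29 in Foxc1. Among the 27 members, the 13 detected ones had a median of 28 CG and 9 of them had 20 or more. This differed by level. The 8 members at 10 RPKM or more had a median of 33.5 CG. The 5 at 1 to under 10 RPKM had a median of 3 CG, under that of the undetected members. The 14 undetected ones had a median of 9.50 CG, and 2 of them, Foxc1 and Foxo6, had 20 or more. Over all 16256 genes with an entry, the medians were 17 for detected genes and 4 for the others, with 20 or more in 39.3% and in 10.02%. The relation was thus not confined to forkhead genes. It also had exceptions on both sides, since Foxp1 with 2 CG and Foxr2 with 1 CG were detected at 7.63 and 7.36 RPKM. Foxr1 with 3 CG was detected at 1.92 RPKM. The forkhead core motif, searched as TGTTTAC or GTAAACA, was found in 1 of the 27 windows, that of Foxp1 (3.70%), and in 2.82% of all windows. The E-box CACGTG was found in 2, those of Foxd3 and Foxi3 (7.41%), and in 7.18% of all windows. A match describes letters and does not show binding.

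**Figure D4:**
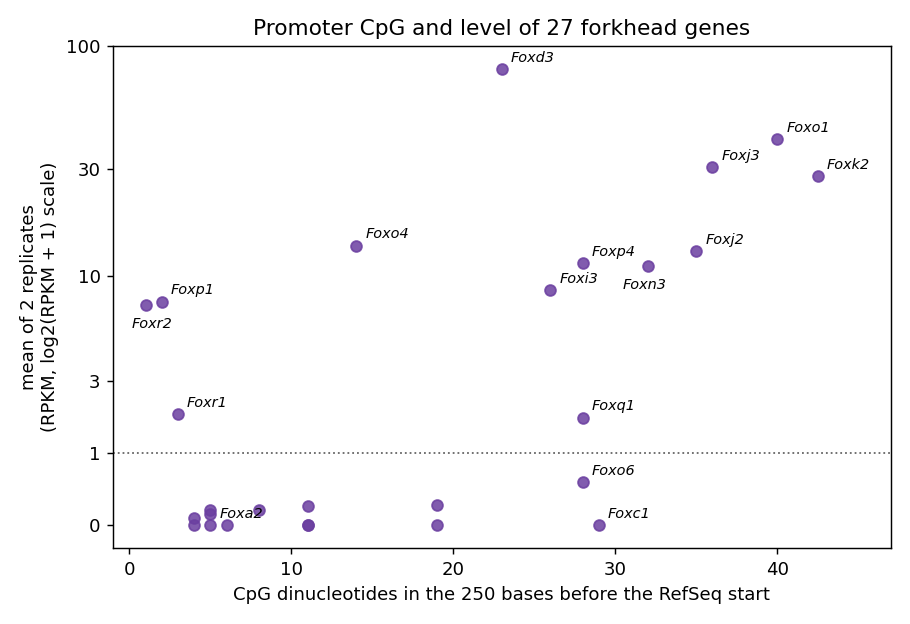
Mean level in RPKM, on a log2(RPKM + 1) axis, of 27 forkhead genes against the number of CpG dinucleotides in the 250 bases before the RefSeq start; each point is a gene and the dotted line marks 1 RPKM. Foxc1 (29 CpG) and Foxo6 (28 CpG) lie under the line at high CpG, and Foxr2 (1 CpG) and Foxp1 (2 CpG) lie above it at low CpG.

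The replicates matched closely over the family. On the log2(RPKM + 1) scale the ratio of replicate 2 to replicate 1 had a median of 0.01 over the 21 detected members, with 12 higher in replicate 2 and 9 higher in replicate 1. No detected member differed more than 2-fold, against 0.721% of all detected genes, and 1 differed more than 1.5-fold, against 4.26%. That member was Foxj1, with a log2 ratio of -0.62, and the shortest gene model that made its values whole held only 15 reads in replicate 1 and 8 reads in replicate 2. With 0.1 RPKM added in place of 1 RPKM, Foxb1 also passed 1.5-fold, which made 2 members, against 7.71% of all detected genes. At the other end, with 1 RPKM added, Foxr2 had a log2 ratio of 0.43. The median size of the log2 ratio was 0.14 over detected forkhead genes and 0.12 over all detected genes. Members above 0 in a single replicate numbered 6, none above 0.411 RPKM, and whole reads came out at 3 for Foxd1 and at as few as 1 for each of Foxi2, Foxa1, Foxl2, Foxn1 and Foxn4.

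**Figure D5:**
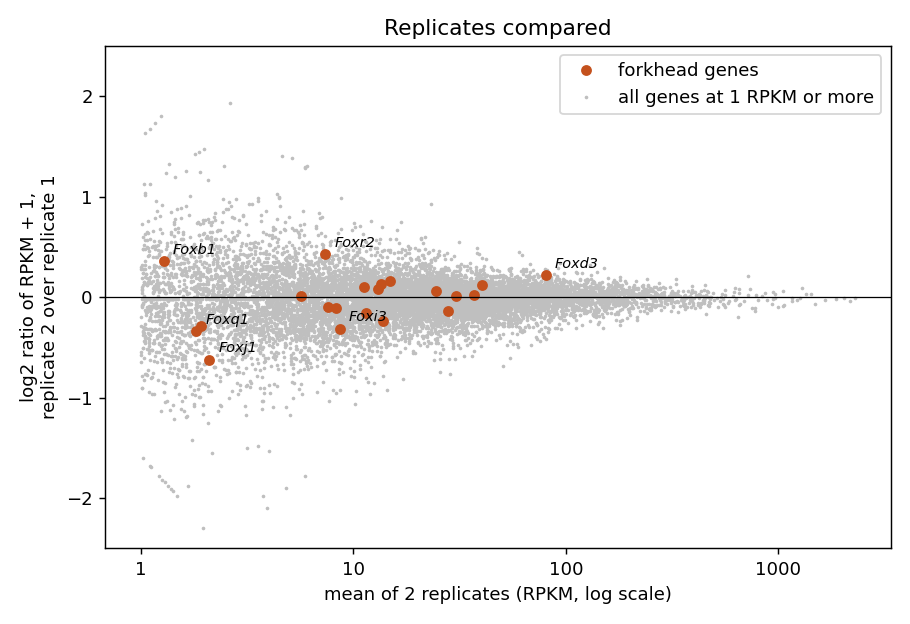
Log2 ratio of RPKM + 1 of replicate 2 over replicate 1 against the mean level in RPKM on a log axis, for 21 forkhead genes (orange) and for all 10814 genes at 1 RPKM or more (grey). The forkhead genes lie within the spread of genes of like level, from -0.62 (Foxj1) to 0.43 (Foxr2).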

How the data were processed

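Gene expression was measured by RNA sequencing of total RNA from 2 wild-type libraries, made with the TruSeq RNA kit and read as paired 50-bp ends, per the labels. The authors deposited RPKM values per gene row. The submitters' processing notes name TopHat 1.4.0 and CASAVA 1.8, and the builds Rnor_5.0 and rn5. How reads were counted, on which annotation and with what use of strand is not given in the sources used.

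Columns were matched to samples by title, and rows of 1 Entrez gene were summed. Since RPKM values are not counts, count models were not applied, and with 1 group there was nothing to test. The SD of a list median is that of the 2 replicate medians. Log2 ratios used a pseudocount of 1 RPKM. Whole reads were recovered from a read total found on rows with a locus under 6000 bp. It was the smallest total at which the number of rows with whole reads came near the largest number found. At this total, 492 of 2040 rows in replicate 1 and 506 of 2055 in replicate 2 were whole. For each member, reads came from the locus as gene model (6 members) or from the shortest length of 60 to 20000 bp that made both libraries whole within a relative tolerance of 3e-07 (26 members in all). Such a length may be a whole fraction of the true one, so these reads are minimum numbers, and intervals are given only where the locus was the model. The 5 members Foxh1, Foxm1, Foxo4, Foxp2 and Foxp3 gave no whole reads. The recovery was checked on simulated data.

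Each forkhead gene above 0 was named with both values. Of the other lists, the 3 highest and the lowest were named, with further genes chosen after their values were seen. Some genes that this rule takes are left out of the text. The members and lists were chosen with earlier results of these data known. Promoters came from RefSeq (GRCr8), matched by Entrez ID, and where a gene had several starts the median over them was used. The promoter analysis and the windows shown were chosen after the levels were seen. The alternatives tried were other detection limits (0.3 and 3 RPKM), the highest row per gene, each replicate alone, rescaling to a sum of 1000000, a pseudocount of 0.1 RPKM or none and no filter. Software was matplotlib 3.10.9, scipy 1.17.1, pandas 2.3.3 and numpy 2.4.6 on Python 3.11.15.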

Additional observations from a re-analysis of the deposited data

How the results depend on the processing

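The number of detected forkhead genes was 22 at a minimum of 0.3 RPKM, 17 at a minimum of 3 RPKM and 22 after rescaling each library to a sum of 1000000. It was 20 and 21 with a replicate left out. The number at 10 RPKM or more was 17 after rescaling, in place of 12. The median level of detected members was 13.4 RPKM at a minimum of 3 RPKM, 25.9 after rescaling and 1.55 RPKM with no filter on low values. With a replicate left out it lay between 11.6 and 12.4 RPKM. At a minimum of 3 RPKM the group of other lineage factors, which holds Foxe1, Foxi3, Foxj1, Foxq1 and Foxb1, had 2 detected members in place of 5. The other role groups stayed within 1.5 times their counts under every alternative run, and the FOXA and the mesoderm and mesenchyme groups had 0 detected members in each. Rescaling moved 25 of 31 gene levels by more than the SD between replicates, as it multiplies each library by a constant. Taking the highest row per gene could change no forkhead count or level, because Foxb2, listed at 0, was the only member with more than 1 row. In a comparison chosen after seeing the data, 2 detected members, Foxj1 and Foxb1, differed more than 1.5-fold between replicates with a pseudocount of 0.1 RPKM, and 2 with none, in place of 1. With 0.1 RPKM the log2 ratio of Foxj1 was -0.89 in place of -0.62.

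No paired analysis was possible because both libraries belong to 1 group. At this depth, most levels under 1 RPKM can rest on as few as 1 read, so the order among them is not resolved, and a listed 0 does not show absence.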

Other observations

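Outside the naming rule, 5 rows of the table were described as forkhead box genes. RGD1562291, described as FOXN2-like (Entrez gene 301676, chromosome 6, 22125245 to 22168108 on rn5), was at 32.8 RPKM in replicate 1 and 28.8 in replicate 2, with a mean of 30.8 ± 2.80 RPKM (SD, n = 2). The table lists it as a paralog of Foxj3, Foxk2 and other members. Its level lay close to that of Foxj3 at 30.5 ± 0.203 RPKM and Foxk2 at 27.8 ± 1.94 RPKM. These are the highest of the set of 11 members that holds them, and the median of that set was 8.26 RPKM. The other 4, LOC100362714 (FOXH1-like), LOC680273 (FOXI2-like), LOC687536 (FOXF1-like) and LOC687553 (FOXL1-like), were listed at 0 in both replicates. RGD1562291 was chosen after its value was seen.

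Other families of developmental transcription factors, taken by symbol, had different shares of detected members, and no difference between families was tested. Detected, with a mean of 1 RPKM or more, were 21 of 40 forkhead genes (52.5%), 8 of 16 Sox genes (50.0%), 8 of 24 nuclear receptor genes with an Nr symbol (33.3%) and 2 of 32 Hox genes (6.25%), against 46.4% of all genes. Among Sox genes Sox2 was at 177 ± 4.13 RPKM, Sox11 at 38.3 ± 4.01 RPKM and Sox12 at 38.0 ± 1.45 RPKM. Among nuclear receptors Nr1h2 was at 28.2 ± 2.01 RPKM, Nr6a1 at 25.3 ± 0.0823 RPKM and Nr2c2 at 16.5 ± 0.137 RPKM. Hoxd9, the highest Hox gene, was at 2.97 ± 0.506 RPKM. Listed at 0 in both replicates were 9 forkhead, 4 Sox, 10 nuclear receptor and 23 Hox genes.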
